A study of Mus musculus with 12 samples.

Results

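The 10 genes described here encode the core chaperones and co-chaperones of the cytosolic heat shock response: Hspa1a, Hspa1b, Hspa8, Hsph1, Hsp90aa1, Hsp90ab1, Dnajb1, Hspb1, Cryab and Bag3. They were chosen by symbol, with earlier results of these data known. Where a gene had more than 1 row on the array, the row of highest mean level was taken. Of the 10, 9 had a row of their own, and all 9 passed the filter on low values, out of 13747 genes that passed among 22180 with a row of 1 symbol. Hsp90ab1, the constitutive cytosolic HSP90, had no row under its symbol or gene identifier and was not analysed here.

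Expression was measured on Affymetrix arrays in the plantaris, a fast-twitch muscle of the calf, in male mice at 12 weeks of age. The 4 groups of 3 arrays were REDD1 knockout exercised, REDD1 knockout sedentary, wild-type exercised and wild-type sedentary. Exercised mice performed 1 bout of aerobic exercise and their muscle was taken 1 hour after it ended. All mice, sedentary ones included, went without food for 3 hours and were anaesthetised with isoflurane before the muscle was removed. The knockout is described as REDD1 null, with no promoter, tissue restriction or deleted stretch named, and the labels name neither a strain nor pooling. Replicate numbers follow the order of the samples, pair nothing, and the p-values measure only the spread between these samples.

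Heat shock chaperones bind unfolded or partly folded proteins and keep them from aggregating. HSP70 proteins (Hspa1a, Hspa1b, Hspa8) take up and release clients in cycles of ATP hydrolysis that J-domain proteins such as Dnajb1 start and exchange factors such as Hsph1 and Bag3 reset. HSP90 (Hsp90aa1, Hsp90ab1) completes the folding of kinases and receptors, and the small heat shock proteins Hspb1 and Cryab hold clients and bind desmin and the Z-disc in muscle. On stress, the transcription factor HSF1 binds heat shock elements, inverted repeats of the unit nGAAn, and raises transcription of the inducible members. Exercise is known to raise the inducible members in skeletal muscle.

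The promoters are shown because Hspa1a and Hspa1b, which had the largest exercise effects of the members, carry nearly the same one, and because the members differ in how many inverted pairs of the heat shock unit their promoters hold. Sequences are from RefSeq, build GRCm38.p6, from 250 bases before to 50 bases after the start site, and 6 of the 10 members had a window. Hspa8, Hsp90aa1, Hsp90ab1 and Cryab are named only. Dnajb1 and Hsph1 had 2 windows each, of which the outermost was used. Each is written 5′ to 3′ on the gene's strand, and capitals mark the letters GAANNTTC or TTCNNGAA. Both motifs read the same on the opposite strand, and matches that overlap are marked together. The windows lie at chr17:34972107-34972406 for Hspa1a and chr17:34959189-34959488 for Hspa1b, both on the minus strand, at chr5:149636287-149636586 on the minus strand for Hsph1 and at chr8:83607925-83608224 on the plus strand for Dnajb1. The stretches of Hspb1 (chr5:135887787-135887844, plus strand) and Bag3 (chr7:128523610-128523632, plus strand) cover only the part of their windows around the matches.

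Hspa1a: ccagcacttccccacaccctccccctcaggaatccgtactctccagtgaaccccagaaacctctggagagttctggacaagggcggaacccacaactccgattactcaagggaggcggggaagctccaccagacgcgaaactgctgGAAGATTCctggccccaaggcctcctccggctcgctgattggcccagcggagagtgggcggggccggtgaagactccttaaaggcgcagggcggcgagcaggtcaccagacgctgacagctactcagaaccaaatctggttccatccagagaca
Hspa1b: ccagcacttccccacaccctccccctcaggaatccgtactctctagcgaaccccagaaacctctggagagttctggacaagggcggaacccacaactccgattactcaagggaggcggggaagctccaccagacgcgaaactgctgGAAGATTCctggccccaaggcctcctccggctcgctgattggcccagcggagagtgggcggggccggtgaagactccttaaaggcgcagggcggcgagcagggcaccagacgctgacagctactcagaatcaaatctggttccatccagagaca
Hsph1: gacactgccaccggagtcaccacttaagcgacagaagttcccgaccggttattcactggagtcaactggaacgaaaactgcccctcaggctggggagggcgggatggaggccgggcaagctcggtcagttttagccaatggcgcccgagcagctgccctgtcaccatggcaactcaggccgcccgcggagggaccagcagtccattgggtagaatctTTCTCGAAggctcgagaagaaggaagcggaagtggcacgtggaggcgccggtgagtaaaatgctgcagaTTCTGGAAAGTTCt
Dnajb1: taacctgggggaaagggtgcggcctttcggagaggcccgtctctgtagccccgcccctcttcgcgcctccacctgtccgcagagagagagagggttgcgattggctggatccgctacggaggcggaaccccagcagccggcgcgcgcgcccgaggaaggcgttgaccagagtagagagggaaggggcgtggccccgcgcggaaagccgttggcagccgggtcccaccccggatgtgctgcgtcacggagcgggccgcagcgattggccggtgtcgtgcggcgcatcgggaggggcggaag
Hspb1: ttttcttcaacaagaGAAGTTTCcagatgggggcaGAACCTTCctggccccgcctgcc
Bag3: ctctggatgggaccaGAAGTTTC

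The windows of Hspa1a and Hspa1b were identical at 296 of 300 bases (98.67%). The differences were C44T, T47C, T249G and C276T, with the Hspa1a base first and positions counted from 1 at the 5′ end of the window. Each held 1 match, GAAGATTC, at positions -104 to -97 from the start. Hsph1 held 3 matches, of which 2 overlapped to form the longer TTCNNGAANNTTC from 36 to 48 bases after the start. Hspb1 held 2 matches, Bag3 held 1 and Dnajb1 held 0. Over all 32851 windows of the table, 7.86% held GAANNTTC, 8.52% held TTCNNGAA, 15.1% held at least 1 of the pair, and 0.603% held either form with 3 units. These matches are a description of the letters in the window, and binding was not measured. The genes Hspa1a and Hspa1b are close copies in their coding sequence too, so signal from either may be shared between their rows.

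The arrays carried the transcripts of fast muscle: all 9 fast-fibre markers passed the filter, and their mean level lay within 0.07 log2 of the 12-array mean on every array. The 8 slow-fibre markers, which all passed the filter, were less even. Their mean lay at -0.62 in knockout sedentary replicate 2, 0.61 in knockout sedentary replicate 3 and 0.63 in knockout exercised replicate 3. By group, its median was 0.29 in knockout exercised and -0.24 in knockout sedentary arrays, and -0.10 in wild-type exercised and 0.02 in wild-type sedentary arrays. Ddit4, the gene for REDD1, had log2 levels of 6.46, 5.72 and 6.77 in knockout exercised and 5.32, 5.44 and 5.08 in knockout sedentary arrays, against 9.05, 8.398 and 8.62 in wild-type exercised and 6.13, 5.83 and 6.02 in wild-type sedentary arrays. Averaged over conditions it was lower in the knockout by limma (log2 fold change -1.54, SE 0.16, adjusted p = 0.000137). The difference was -2.37 in exercised muscle (limma adjusted p = 0.00011) and -0.71 in sedentary muscle (limma adjusted p = 0.411). In the knockout Ddit4 was 1.04 higher with exercise (limma adjusted p = 0.0679). The place of the probes relative to the deletion is not given. Wild-type exercised replicate 1 stood apart: limma's array weight was the lowest of the 12, at 0.366, and 10 immediate-early genes lay 1.11 log2 above the 12-array mean there, against -0.10 and 0.11 in replicates 2 and 3 of that group. Its Schwann cell and nerve markers, 5 of 8 of which passed the filter, lay 0.82 above the mean, against -0.51 in replicate 2 and -0.03 in replicate 3. Schwann cell and nerve markers were high on 2 further arrays, at 0.59 in knockout exercised replicate 2 and 0.66 in knockout sedentary replicate 3, and the 9 matrix and fibroblast markers lay 0.81 above the mean in knockout sedentary replicate 3. The part these differences play in the chaperone values was not tested.

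All values below are log2 expression as deposited, differences are log2 fold changes, and a gene was called at a Benjamini-Hochberg adjusted p under 0.05 in limma over the 13747 genes. Averaged over genotypes, all 9 measured members had a positive exercise effect. Of these, 4 of 9 were called higher and 0 lower, where 1.09% of all tested genes were called higher and 1.6% in either direction. The called members were Hspa1b, Hspa1a, Dnajb1 and Hsp90aa1. The median over the members was 0.33, against -0.01 over all tested genes. In bulk muscle, a change in the number of cells of a type and a change in RNA per cell cannot be told apart. The 7 endothelial markers lay the other way: their mean lay 0.06 to 0.30 below the 12-array mean on the 6 exercised arrays, against 0.10 to 0.23 above it on the 6 sedentary arrays, with 7 of 7 exercise effects negative and 2 called lower. Their part in the chaperone values was not tested. The plot of every array shows the members side by side.

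**Figure D1:**
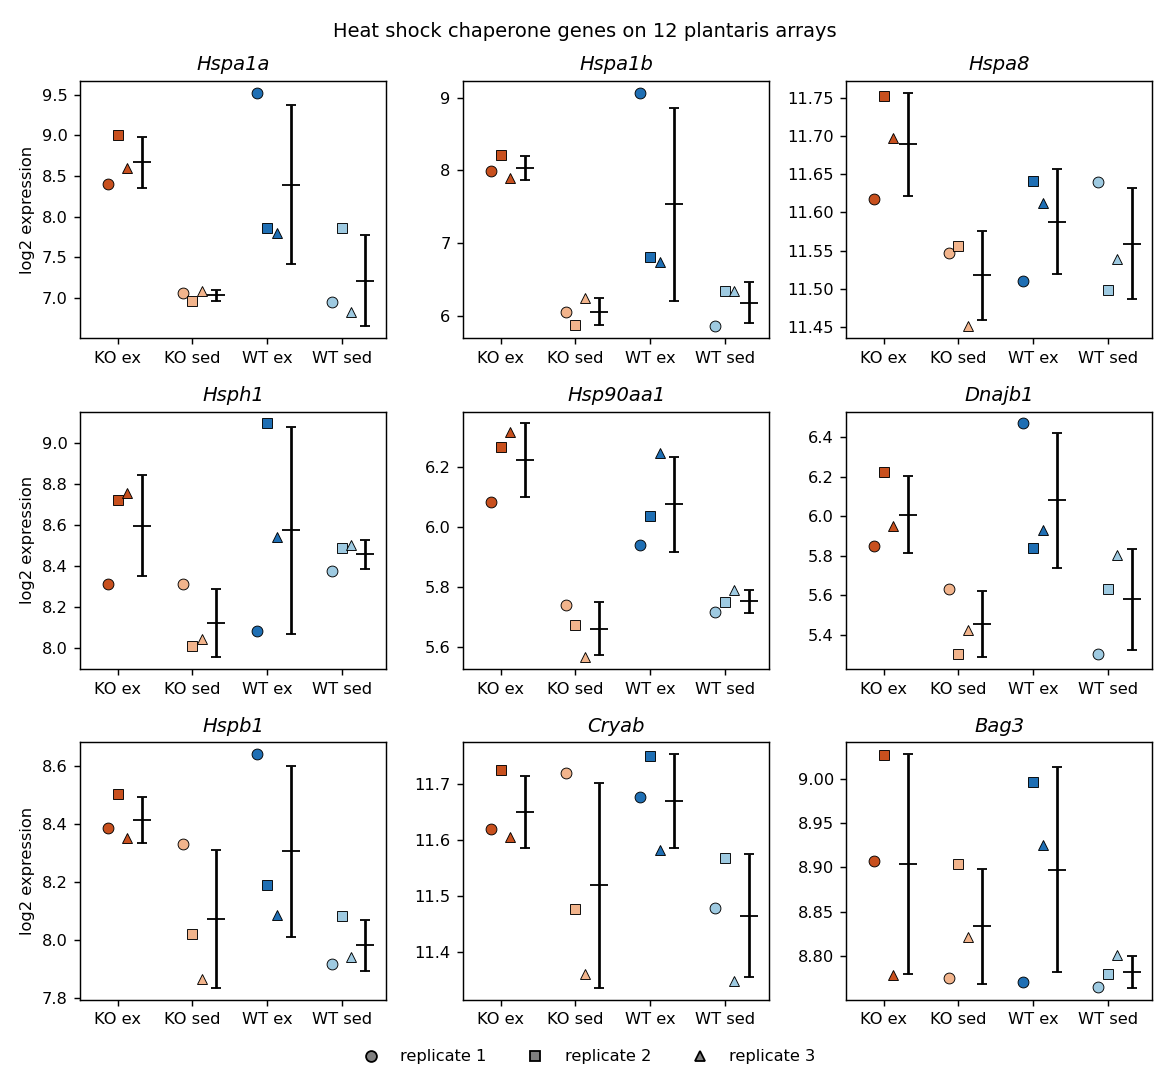
Log2 expression of the 9 measured members (vertical axis of each panel, each with its own range) on the 12 arrays, by group: knockout (KO) and wild type (WT), exercised (ex) and sedentary (sed). Points are arrays, shaped by replicate, and the bar beside them is the mean ± SD (n = 3). Hspa1b was 7.89 to 8.21 on the knockout exercised arrays and 5.88 to 6.24 on the knockout sedentary arrays, while wild-type exercised replicate 1 lay at 9.07, above the 6.81 and 6.73 of its group.

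Hspa1b and Hspa1a encode the stress-inducible HSP70 and had the largest effects of the members. Hspa1b had 7.999, 8.21 and 7.89 in knockout exercised arrays, against 6.05, 5.88 and 6.24 in knockout sedentary arrays. In wild type it had 9.07, 6.81 and 6.73 in exercised arrays, against 5.85, 6.34 and 6.34 in sedentary arrays. Exercised and sedentary arrays did not overlap in either genotype, and the wild-type exercised arrays spanned 2.34 log2. The averaged effect was 1.67, a 3.18-fold rise (SE 0.30, limma adjusted p = 0.0079).

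Hspa1a had 8.398, 9.01 and 8.60 in knockout exercised arrays, against 7.06, 6.96 and 7.09 in knockout sedentary arrays. Its wild-type levels were 9.53, 7.86 and 7.80 in exercised arrays, against 6.95, 7.85 and 6.82 in sedentary arrays. The knockout groups were apart, while wild-type sedentary replicate 2 lay above wild-type exercised replicate 3 and level with replicate 2. Its averaged effect was 1.41, a 2.66-fold rise (SE 0.25, limma adjusted p = 0.0086). Over the 12 arrays, Hspa1a and Hspa1b had a Pearson r of 0.959, a description of 2 rows that may share signal.

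Dnajb1, the J-domain partner that delivers clients to HSP70, had 5.85, 6.22 and 5.95 in knockout exercised arrays, against 5.63, 5.31 and 5.42 in knockout sedentary arrays. Wild-type levels were 6.47, 5.84 and 5.93 in exercised arrays, against 5.31, 5.63 and 5.81 in sedentary arrays. The groups did not overlap in either genotype, with 0.03 between the lowest exercised and the highest sedentary array in wild type. Its averaged effect was 0.53 (SE 0.12, limma adjusted p = 0.0445). This call was close to the threshold: it held when 3 of the 12 arrays were left out in turn and was lost for the other 9, with adjusted p between 0.0323 and 0.121 over the 12. It was also lost without the filter (0.0659), without the intensity trend (0.0592) and with every row tested on its own (0.12).

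Hsp90aa1, the inducible cytosolic HSP90, had 6.08, 6.27 and 6.32 in knockout exercised arrays, against 5.74, 5.67 and 5.57 in knockout sedentary arrays. Levels in wild type were 5.94, 6.04 and 6.25 in exercised arrays, against 5.72, 5.75 and 5.79 in sedentary arrays. All 6 exercised arrays lay above all 6 sedentary arrays, as they also did for Hspa1b and Dnajb1. The share of all tested genes that did so was not counted. Averaged over genotypes, the effect was 0.44 (SE 0.08, limma adjusted p = 0.0070), and it stayed called when each of the 12 arrays was left out, with effects between 0.40 and 0.48. Without limma's moderation of the spread across genes, this call held (adjusted p = 0.0324), while those of Hspa1b (adjusted p = 0.17), Hspa1a (0.172) and Dnajb1 (0.232) were lost.

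The small heat shock proteins were positive but not called. Hspb1, which caps actin filaments and holds unfolded clients, had 8.39, 8.51 and 8.35 in knockout exercised arrays, against 8.33, 8.02 and 7.86 in knockout sedentary arrays. The wild-type values were 8.64, 8.19 and 8.09 in exercised arrays, against 7.92, 8.08 and 7.94 in sedentary arrays. Within each genotype the groups were apart, by 0.02 in knockout and by less than 0.01 in wild type. The averaged effect was 0.33 (SE 0.10, limma adjusted p = 0.137).

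Cryab, the lens and muscle small heat shock protein that binds desmin, had 11.62, 11.72 and 11.61 in knockout exercised arrays, against 11.72, 11.48 and 11.36 in knockout sedentary arrays. In wild type it had 11.68, 11.75 and 11.58 in exercised arrays, against 11.48, 11.57 and 11.35 in sedentary arrays. Only the wild-type groups were apart, and knockout sedentary replicate 1 lay level with the highest knockout exercised array. Its averaged effect was 0.17 (SE 0.07, limma adjusted p = 0.329).

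The constitutive HSP70 gene Hspa8 had 11.62, 11.75 and 11.70 in knockout exercised arrays, against 11.55, 11.56 and 11.45 in knockout sedentary arrays. Its wild-type levels were 11.51, 11.64 and 11.61 in exercised arrays, against 11.64, 11.50 and 11.54 in sedentary arrays. The knockout groups were apart and the wild-type groups overlapped. Averaged over genotypes, the effect was 0.10 (95% interval -0.01 to 0.21, limma adjusted p = 0.503), and 0.23 with the mean of the gene's rows.

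Hsph1, the HSP110 that exchanges nucleotide on HSP70, had 8.31, 8.72 and 8.76 in knockout exercised arrays, against 8.31, 8.01 and 8.04 in knockout sedentary arrays. Wild-type levels were 8.08, 9.10 and 8.54 in exercised arrays, against 8.38, 8.49 and 8.50 in sedentary arrays. Replicate 1 of each knockout group had the same value to 2 decimals, and the wild-type exercised arrays spanned 1.01 log2, on both sides of the sedentary arrays. The averaged effect was 0.30 (SE 0.14, limma adjusted p = 0.437).

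Bag3, the co-chaperone that couples HSP70 to small heat shock proteins and to selective autophagy at the Z-disc, had 8.91, 9.03 and 8.78 in knockout exercised arrays, against 8.77, 8.90 and 8.82 in knockout sedentary arrays. Levels in wild type were 8.77, 8.996 and 8.93 in exercised arrays, against 8.77, 8.78 and 8.80 in sedentary arrays. Groups overlapped in both genotypes. The averaged effect was 0.09 (95% interval -0.05 to 0.23, limma adjusted p = 0.667).

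**Figure D2:**
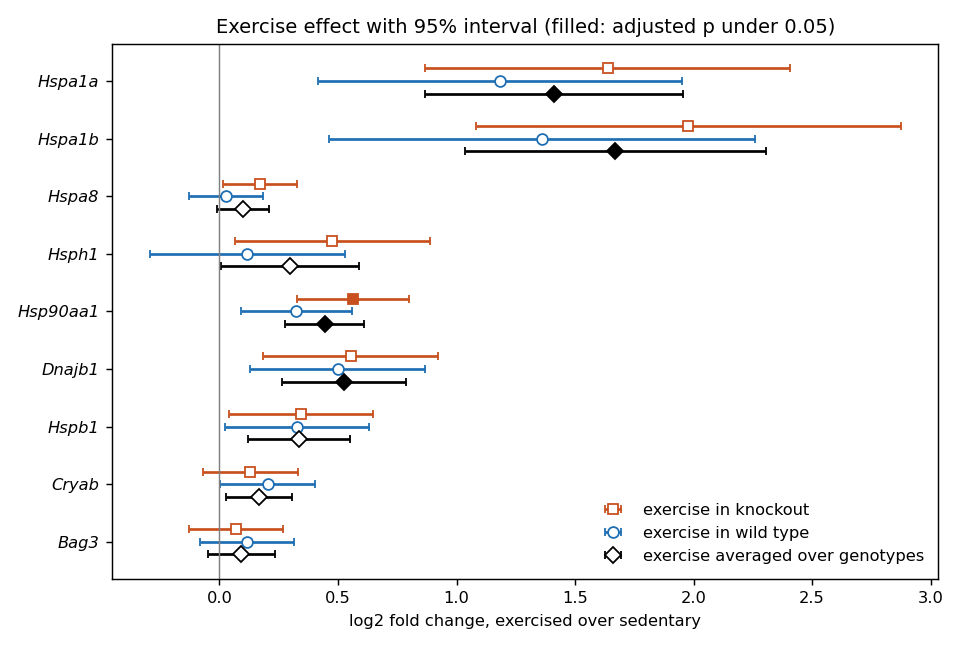
Exercise effect of each member as log2 fold change, exercised over sedentary (horizontal axis), with limma's 95% interval, in knockout (squares), in wild type (circles) and averaged over genotypes (diamonds). Filled symbols are called at an adjusted p under 0.05. The averaged effects of Hspa1b, Hspa1a, Dnajb1 and Hsp90aa1 and the knockout effect of Hsp90aa1 are filled, and all 9 members lie right of 0.

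In the knockout alone, 1 of 9 members was called, where 0.276% of all tested genes were called and 0.24% were called higher. That gene was Hsp90aa1 (0.56, SE 0.11, limma adjusted p = 0.0481). The call held in 2 of the 12 runs that left out 1 array, those without wild-type exercised replicate 1 or replicate 3, and was lost in the other 10, with an adjusted p of up to 0.208. It was lost under median centring too (adjusted p = 0.0604), where Hspa1b was called instead (adjusted p = 0.04995). Hspa1b (1.98, adjusted p = 0.0679) and Hspa1a (1.64, adjusted p = 0.0773) had larger effects and missed the threshold in the same fit. Over the 9 members the median knockout effect was 0.48, against 0.00 over all tested genes. Knockout exercised arrays lay above knockout sedentary arrays without overlap for 7 of 9 members, where 7.13% of all tested genes did so. Without knockout sedentary replicate 3 the members' median knockout effect was 0.44 with 0 called, and without knockout exercised replicate 2 it was 0.41 with 0 called.

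In wild type alone, 0 of 9 members were called, where 0.567% of all tested genes were called. At an unadjusted p under 0.05, limma counted 6 of the 9, all with positive effects, where 8.21% of all tested genes were at such a p and 45.0% were positive. The median effect was 0.32, against -0.02 over all tested genes. Wild-type exercised arrays lay above wild-type sedentary arrays without overlap for 5 of 9 members, where 5.75% of all tested genes did so. In both genotypes at once this held for Hspa1b, Hsp90aa1, Dnajb1 and Hspb1, 4 of 9 members, where 1.44% of all tested genes did so.

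Wild-type exercised replicate 1 did not rank alike for all members. It had the highest value of all 12 arrays for Hspa1a, Hspa1b, Dnajb1 and Hspb1. It had the lowest value of its group of 3 for Hspa8, Hsp90aa1, Hsph1 and Bag3, and the middle value for Cryab. The share of all tested genes with such ranks on this array was not counted, so the split is not shown to be particular to the chaperones. Without it the wild-type effect was 0.59 for Hspa1b, where all arrays gave 1.36, and 0.62 for Hspa1a, where all arrays gave 1.18. Without it the wild-type effect of Dnajb1 was 0.30, where all arrays gave 0.50, and that of Hspb1 was 0.16, where all arrays gave 0.33. Hsph1 moved the other way, with 0.36 without the array where all arrays gave 0.12. Without it Hsp90aa1 was at 0.39, Cryab at 0.20, Bag3 at 0.18 and Hspa8 at 0.07, where all arrays gave 0.32, 0.20, 0.11 and 0.03. The averaged calls of Hspa1b, Hspa1a and Hsp90aa1 held without it, and that of Dnajb1 was lost (0.43, limma adjusted p = 0.0779). The array also entered the spread that all comparisons share. Without it the knockout effects of Hspa1b and Hspa1a, which do not use it, had an SE of 0.14 and 0.21 (limma adjusted p = 1.8e-05 and 0.00243), where all arrays gave an SE of 0.42 and 0.36.

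**Figure D3:**
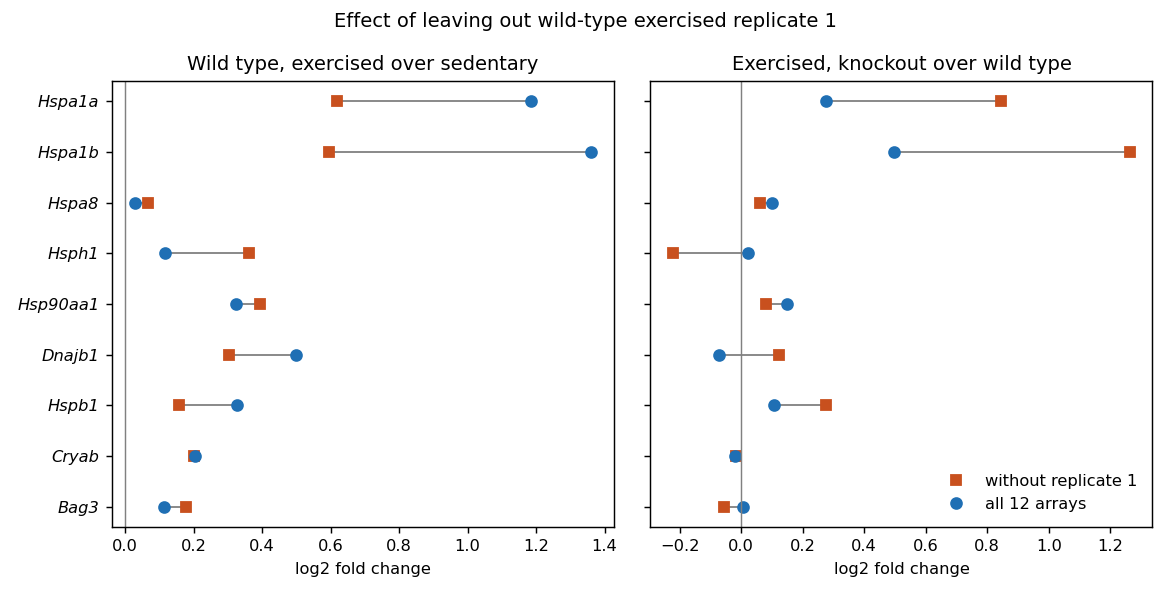
Log2 fold change of each member (horizontal axis) with all 12 arrays (circles) and without wild-type exercised replicate 1 (squares). The left panel gives exercised over sedentary in wild type and the right panel knockout over wild type in exercised muscle. Without the array, Hspa1b lies at 0.59 in the left panel and at 1.26 in the right panel.

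The difference between the exercise effects, knockout minus wild type, asked whether the chaperone response depends on REDD1. It was called for 0 of 9 members, where 0.0% of all tested genes were called, and 0 members had an unadjusted p under 0.05, against 620 of all tested genes (4.51%). It was positive for 7 of 9, where 53.2% of all tested genes were positive, with a median of 0.14. The intervals were wide: 0.62 for Hspa1b (95% interval -0.65 to 1.89), 0.45 for Hspa1a (-0.63 to 1.54) and 0.24 for Hsp90aa1 (-0.09 to 0.57). For Dnajb1 it was 0.06 (-0.47 to 0.58). Leaving out 1 array moved the Hspa1a difference to between 0.13 and 1.02, with the highest value without wild-type exercised replicate 1, and the Hspa1b difference to between 0.22 and 1.38. The 95% intervals of Hspa1b, Hspa1a, Hsp90aa1 and Dnajb1 each hold no difference. Each also holds a knockout effect that is larger by as much as the gene's effect in wild type. In the other direction, the lower limits were -0.65, -0.63, -0.09 and -0.47, beside wild-type effects of 1.36, 1.18, 0.32 and 0.50. These intervals thus did not reach a full loss of the wild-type effect, narrowly so for Dnajb1.

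Knockout and wild type were also compared within each condition. In sedentary muscle 0 of 9 members were called (0.138% of all tested genes), in exercised muscle 0 of 9 (0.175%), and averaged over conditions 0 of 9 (0.546%). Limma gave 0 members an unadjusted p under 0.05 in these comparisons. Over all tested genes, 7.7% in sedentary muscle, 6.58% in exercised muscle and 9.36% averaged over conditions were at such a p. In sedentary muscle the difference of Hsph1 had the smallest p of the members, with 8.31, 8.01 and 8.04 in knockout against 8.38, 8.49 and 8.50 in wild type (-0.34, SE 0.19, limma adjusted p = 0.722). In exercised muscle Hspb1 had 0.11 (adjusted p = 0.986) and Hsp90aa1 0.15 (adjusted p = 0.931). For Hspa1a, Hspa1b and Hspb1, the 3 knockout exercised arrays lay below wild-type exercised replicate 1 and above the other wild-type exercised arrays. These genes had similar levels over the 12 arrays, with Pearson r of 0.87 to 0.96, so they are not separate observations. The share of all tested genes placed so was not counted.

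The exercised comparison of Hspa1b depended on 1 array. With all arrays the knockout was 0.50 higher (SE 0.42, limma adjusted p = 0.935), and without wild-type exercised replicate 1 it was 1.26 higher (SE 0.16, adjusted p = 0.00352). The wild-type exercised arrays left in that run were at 6.81 and 6.73. Under the 9 other settings, array weights among them, it was not called, with a limma adjusted p of at least 0.1256. Averaged over conditions the Hspa1b difference was 0.19 with all arrays and 0.57 without wild-type exercised replicate 1 (adjusted p = 0.0198). The difference of the exercise effects of Hspa1b remained uncalled without it, at 1.38 (adjusted p = 0.189).

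Hspa8 was measured by several rows that disagreed. Of 17 rows that name a member, 14 carried 1 symbol, 3 carried several, and 5 of those with 1 symbol were not the row used. For Hspa8, the used row (17516365) lay near 11.6, and 3 further rows lay between 6.84 and 8.32. Rows 17548744 and 17548379 had nearly the same values, within 0.0117 on every array. Both had an averaged exercise effect of 0.32, against 0.10 in the used row, and uncalled knockout effects of 0.55 and 0.54, against 0.17 in the used row. Row 17434475, chosen for description after its values were seen, was lower in the knockout. It had 7.20, 7.06 and 7.29 in knockout exercised arrays, against 8.005, 7.85 and 7.63 in wild-type exercised arrays. In sedentary muscle it had 7.13, 6.89 and 6.84 in knockout arrays, against 7.67, 7.80 and 7.71 in wild-type arrays. All 6 knockout arrays lay below all 6 wild-type arrays, a description of the values by which the row was chosen. The share of all rows that did so was not counted.

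With every row that passed the filter tested on its own, 22506 in all and added after the data were seen, row 17434475 was lower in the knockout averaged over conditions (-0.71, SE 0.08, limma adjusted p = 0.00269), where 0.364% of all rows were called. In sedentary muscle it was called too (-0.77, SE 0.12, adjusted p = 0.036), where 0.116% of rows were called, a call that held in 3 of the 12 runs that left out 1 array and in 2 of 7 other settings, and in exercised muscle it was not (-0.64, adjusted p = 0.0918), where 0.147% were. The used Hspa8 row differed by 0.03 averaged over conditions (95% interval -0.08 to 0.14). The probes behind each row are not given in the sources used here, so whether row 17434475 reports an Hspa8 transcript was not tested.

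**Figure D4:**
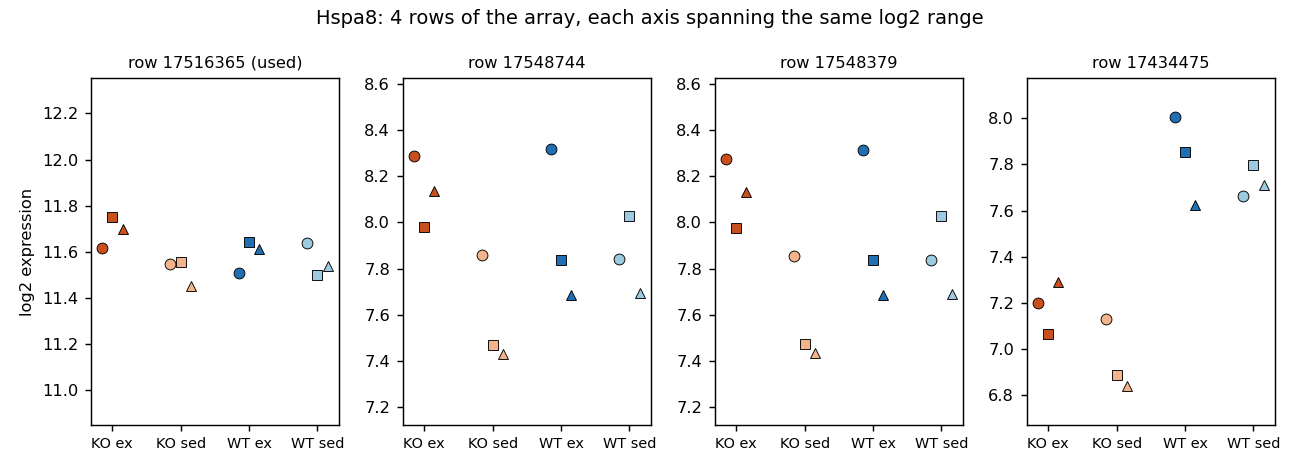
Log2 expression of the 4 rows that carry Hspa8 as their only symbol (vertical axes, all spanning the same log2 range) by group: knockout (KO) and wild type (WT), exercised (ex) and sedentary (sed), with 1 point per array, shaped by replicate. Only in row 17434475 do all 6 knockout arrays, at 6.84 to 7.29, lie below all 6 wild-type arrays, at 7.63 to 8.005.

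The wider chaperone network was taken from 9 lists of 63 genes, of which 58 passed the filter. Averaged over genotypes, 1 of 58 was called higher by exercise and 0 lower, a share near the 1.09% of all tested genes called higher. That gene was Dnajb4, a J-domain protein abundant in muscle, with 5.70 in exercised and 5.39 in sedentary arrays on average (0.31, SE 0.07, limma adjusted p = 0.0475). The call was lost in 11 of the 12 runs that left out 1 array, with an adjusted p of up to 0.138. Positive effects were found in 46 of 58, where 45.7% of all tested genes were positive, with a median of 0.08, against 0.33 for the 9 members and -0.01 over all tested genes. By genotype, 0 of 58 were called in the knockout (47 positive, median 0.11, 10 at an unadjusted limma p under 0.05) and 0 in wild type (39 positive, median 0.07, 2 at an unadjusted p under 0.05). Over all tested genes, 49.4% were positive in the knockout and 45.0% in wild type, and 8.93% in the knockout and 8.21% in wild type were at an unadjusted p under 0.05.

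Among J-domain proteins, 8 of 9 were positive: Dnaja4 had 0.31 (adjusted p = 0.0796), and Dnajb6 and Dnajb2 had 0.19 each. All 10 other HSP70 genes were positive, with 0 called. They included the endoplasmic reticulum HSP70 gene Hspa5 (0.25, adjusted p = 0.0963), the exchange factor Hspa4 (0.18) and Hspa1l (0.22). Of the 10 chaperonin genes 9 were positive and 0 called, with Hspe1, the mitochondrial co-chaperonin, at 0.29 (adjusted p = 0.0714), and Cct6a and Cct8, subunits of the cytosolic TRiC complex, at 0.25 and 0.22.

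Of 11 co-chaperones of HSP90 and HSP70, 10 were positive and 0 called, with Stip1, which links HSP70 to HSP90, at 0.22. By list, the median was 0.14 for J-domain proteins, 0.10 for these co-chaperones, 0.09 for other HSP70 genes, 0.07 for chaperonins, 0.07 for the 2 other HSP90 genes, 0.06 for the 4 other small heat shock proteins, 0.06 for the 3 autophagy partners, 0.01 for the 6 BAG and exchange factors and -0.04 for the heat shock factors and their binding protein. Among the autophagy partners, the actin cross-linker Flnc had 0.24 (adjusted p = 0.244), and among the heat shock factors Hsf2 had -0.08 and Hsf4 -0.04. Differences between lists were not tested. Hsf1, Dnaja1, Hspb2 and Stub1 had no row of 1 symbol, and Ptges3 was below the filter. In sedentary muscle, 15 of 58 network genes had a positive difference, knockout over wild type, with a median of -0.09 and 0 called, where 46.0% of all tested genes were positive and 0.138% were called.

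**Figure D5:**
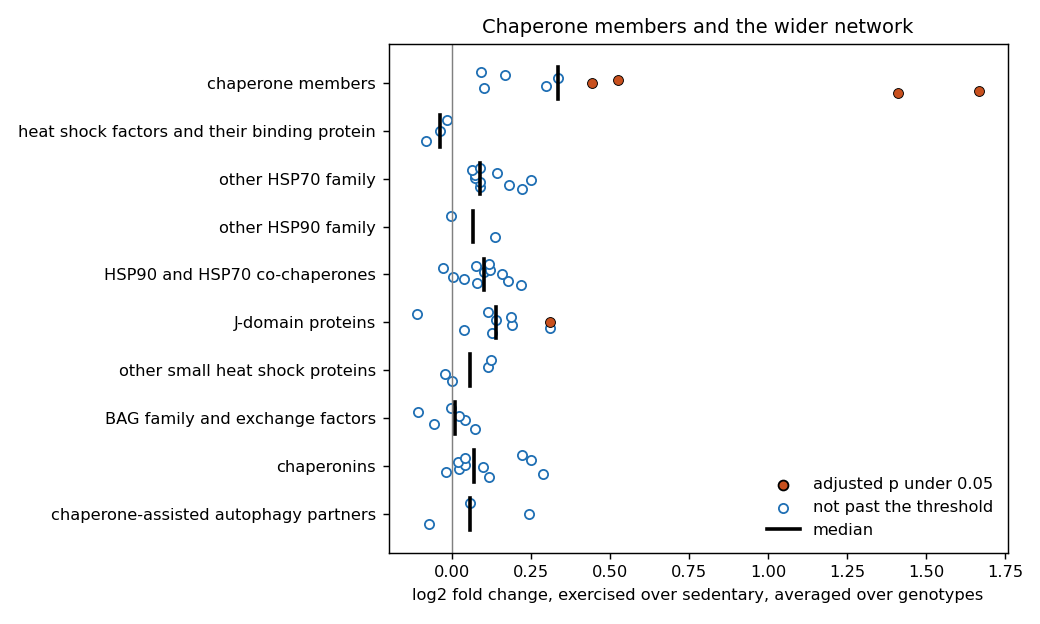
Exercise effect averaged over genotypes as log2 fold change, exercised over sedentary (horizontal axis), for the 9 members (top) and the 58 measured genes of the 9 network lists. Points are genes, filled where the adjusted p is under 0.05, and the bar is the median of the list. The members' median of 0.33 lies right of every list's median, the highest of which is 0.14 for J-domain proteins.

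Likeness of levels over the 12 arrays is given as Pearson's r with no test, because the arrays share groups, and several values moved without wild-type exercised replicate 1. Hspa1b had an r of 0.898 with Dnajb1 and 0.868 with Hspb1, and 0.835 and 0.799 without that array. With Hsph1 it had 0.136 (Spearman's rho 0.406) and with Bag3 0.186 (rho 0.336), but r was 0.48 and 0.483 without that array. Hspa8 had an r of 0.779 with Hsp90aa1 and 0.352 with Hspa1b, and 0.816 and 0.704 without it. The search for like genes left the members out. Among tested genes outside the members, the levels most like those of Hspa1b were Atf3, a stress-induced transcription factor (r = 0.947), Otud1, a deubiquitinase (r = 0.943), and Trib1, a pseudokinase (r = 0.942). The levels most like those of Hsp90aa1 were Rnf144b, a ubiquitin ligase (r = 0.946), Ppara, a nuclear receptor for fatty acids (r = 0.936), and Lmbrd1, a lysosomal cobalamin exporter (r = 0.927). For Cryab they were 2410004B18Rik (r = 0.890), Tbl3 (r = 0.890) and the kinase Pim3 (r = 0.876). Without that array these 9 values lay between 0.886 and 0.946.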

How the data were processed

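The authors deposited 1 table of log2 expression values, 41345 rows by 12 arrays. Total RNA was labelled with the GeneChip WT PLUS kit, per the labels' protocols, and Partek is named without a version in the submitters' processing notes. The log base was read from the range of 0.36 to 13.9, and the background correction, normalisation, summarisation and genome build are not given in the sources used here. Array medians lay between 4.52 and 4.60. The number of arrays limits the precision.

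Rows were named through the platform annotation: 23521 had 1 symbol, 1814 several and 16010 none. A gene's row with the highest mean was kept, and 13747 genes above the table median of 4.557 in at least 3 arrays were tested with limma 3.58.1 in R 4.3.3 (1 mean per group, 8 residual degrees of freedom, intensity trend in the prior). P-values are two-sided and Benjamini-Hochberg adjusted over all tested genes within a comparison. Rows with several symbols were left out of tests. The method was tested on simulated data.

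The members and lists were chosen with earlier results of these data known. All members were named in every comparison. Of the network lists, genes called and up to 4 per list with the smallest p in the averaged exercise comparison could be named. For likeness, the 3 genes outside the members with the highest r were named. Alternatives were no filter on low values, median centring, quantile normalisation, no trend, no moderation (an analysis of variance per gene), the mean of a gene's rows, only the groups compared, array weights, each array left out, and, added after seeing the data, every row tested on its own.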

Additional observations from a re-analysis of the deposited data

Results flagged for a closer look

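Row 17434475, a second row with Hspa8 as its only symbol that the comparisons of genes did not use, differed between genotypes. In sedentary muscle it was 0.77 lower in the knockout (log2 fold change -0.7736, limma adjusted p = 0.036 over 22506 rows), with 3 of 3 knockout arrays below all wild-type arrays. Averaged over conditions it was lower by 0.71 (-0.7084, adjusted p = 0.00269), with 6 of 6 knockout arrays below all wild-type arrays. The row was picked by these same values, so the separation of its arrays adds no support to the calls. The share of all rows separated in this way was not counted. The averaged call held in all 12 runs that left out 1 array and in all 6 other settings run. The sedentary call held in 3 of the 12 runs that left out 1 array, with an adjusted p of up to 0.164 in the others, and in 2 of 7 other settings. The cause was not tested. No group had the 4 arrays that a test of single outlying arrays needs.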

How the results depend on the processing

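No paired analysis was possible because the labels number the arrays 1 to 12 through the series, so groups share no replicate numbers. Leaving out each array in turn gave 0 called members for exercise in wild type, for the difference of exercise effects and for knockout against wild type in sedentary muscle, 0 to 3 for exercise in knockout, 3 to 4 for exercise averaged over genotypes, and 0 to 1 for knockout against wild type in exercised muscle and averaged over conditions. Over all genes those runs called 16 to 71 for exercise in knockout, 46 to 90 for exercise in wild type, 144 to 220 for the averaged exercise effect, 0 for the difference, 6 to 27 for knockout in sedentary muscle, 5 to 40 in exercised muscle and 38 to 149 averaged. The averaged calls of Hspa1a, Hspa1b and Hsp90aa1 held in all 12 of those runs. Without moderation 1 member was called for averaged exercise (Hsp90aa1), and Hspa1a and Hspa1b had adjusted p of 0.172 and 0.17.

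For exercise in knockout, 0 members were called without the filter, without the trend, without moderation or with every row tested, 2 with only the groups compared (Hspa1a and Hspa1b) and 3 with array weights. With median centring 1 was called, Hspa1b in place of Hsp90aa1. Array weights called 83 genes for exercise in knockout, 127 in wild type, 348 averaged, 89 for knockout in exercised muscle and 193 averaged over conditions. Without moderation the counts were 0, 12, 67, 1 in exercised and 1 in sedentary muscle, and 23 averaged. Without the trend 24 genes were called for exercise in knockout and 42 for knockout averaged, and with only the groups compared 25 for exercise in knockout and 13 for knockout in exercised muscle. The causes were not tested.

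Signs that turned belonged to uncalled values. Under quantile normalisation they were Hspa8 in sedentary muscle (0.0001, knockout over wild type), the exercise difference of Hspb1 (-0.0228), Cryab averaged over conditions (-0.0075) and Bag3 in exercised muscle (-0.0254). With the mean of all rows they were Hspa8 in exercised muscle (-0.0432) and averaged (-0.1902), Hspb1 for the difference (-0.119) and in exercised muscle (-0.0277), and Cryab averaged (-0.0032). With array weights they were Dnajb1 (0.0602), Hsph1 (-0.055) and Bag3 (-0.0702) in exercised muscle and Bag3 averaged (-0.0012), and with median centring Bag3 in exercised muscle (-0.0034).

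With 1 array left out, knockout over wild type in sedentary muscle ranged from -0.3696 to 0.1469 for Hspa1a, -0.0385 to 0.1949 for Hspb1 and -0.046 to 0.1327 for Cryab. In exercised muscle it ranged from -0.0209 to 0.8431 for Hspa1a, -0.1909 to 0.123 for Dnajb1, -0.221 to 0.2848 for Hsph1, -0.002 to 0.2757 for Hspb1, -0.0629 to 0.0206 for Cryab and -0.0567 to 0.0691 for Bag3. Averaged over conditions it ranged from -0.0983 to 0.3337 for Hspa1a, -0.0123 to 0.5716 for Hspa1b, -0.0061 to 0.0712 for Hsp90aa1, -0.0327 to 0.0567 for Cryab and -0.0028 to 0.0601 for Bag3. The exercise difference ranged from -0.0643 to 0.2496 for Dnajb1, -0.093 to 0.1847 for Hspb1, -0.152 to 0.0267 for Cryab and -0.1079 to 0.018 for Bag3. Exercise in wild type ranged from -0.0015 to 0.0689 for Hspa8 and -0.1445 to 0.3613 for Hsph1, and averaged exercise from -0.1581 to 0.011 for Hsf2. Of all values recomputed, 951 with 1 array left out and 665 under the other settings kept their direction and their side of the threshold. With 1 array left out, 45 turned sign, 39 lost a call and 9 gained one. Under the other settings 14 turned sign, 19 lost a call and 9 gained one. A value uncalled in both runs counts as kept if its sign held. Hspa1a and Hspa1b may share probes, Hspa8 rows disagree, and 3 arrays per group leave the difference of exercise effects wide.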

Other observations

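Rows that the comparisons of genes did not use gave further values for the chaperones. The second row of Cryab (17548750) had 8.08, 7.90 and 7.98 in knockout exercised arrays, against 7.93, 7.54 and 7.59 in knockout sedentary arrays. In wild type it had 8.27, 7.99 and 7.77 in exercised arrays, against 7.70, 7.98 and 7.46 in sedentary arrays. Its averaged exercise effect was 0.30 (SE 0.11, limma adjusted p = 0.391 over 22506 rows), beside 0.17 for the row used. The row that carries both Hspa1a and Hspa1b as its symbols (17336820) lay below the filter on most arrays and was not tested. It had 4.22, 3.44 and 3.73 in knockout exercised arrays, against 3.33, 3.17 and 3.09 in knockout sedentary arrays. In wild type it had 4.59, 3.31 and 2.97 in exercised arrays, against 3.09, 3.48 and 2.84 in sedentary arrays, so replicate 1 was again the highest of its group. Other unused rows were near 0: the row of Hspb2 and Cryab (17526923) had an averaged exercise effect of -0.01 (adjusted p = 0.98) and the row of Snord14e and Hspa8 (17516383) 0.03 (adjusted p = 0.978). The second row of Hspb1 (17286958), below the filter and not tested, had 0.02 in knockout and 0.28 in wild type.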
